A study of Mus musculus with 12 samples.

Results

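The macrophage polarization markers were 10 genes chosen by symbol, among them Nos2, Mrc1, Chil3, Retnla, Cd163, Msr1, Clec10a and Stab1, out of 32544 genes in a table of estimated counts. Bone marrow-derived macrophages (BMDMs) labelled WT came from LysMCre mice, and those labelled PHD2cko from mice with a conditional PHD2 allele and LysMCre, so that the Cre was common to all donors. LysMCre acts in myeloid cells, where deletion can be partial. RNA was taken from BMDMs 24 h after seeding, following differentiation in L929-conditioned medium, and from NIH/3T3 fibroblasts, an established mouse line, after 72 h in medium conditioned by either kind of BMDM. Each of the 4 groups (BMDM WT, BMDM PHD2cko, 3T3 in WT medium, 3T3 in PHD2cko medium) had 3 libraries. No source states that the triplicates came from separate animals, so p-values measure the spread between these libraries, which may be technical. The oxygen condition of the sequenced cultures is not named, and no polarizing cytokine is named for them. The age of the donor mice was not used here.

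Macrophages take on different programmes according to the signals they receive. Interferon-γ with bacterial lipopolysaccharide induces Nos2, whose product makes nitric oxide from arginine, while IL-4 and IL-13, through the receptor chain Il4ra and the factor Stat6, induce Mrc1, Chil3, Retnla and Clec10a in mice. Glucocorticoids and IL-10 raise Cd163, the receptor for haptoglobin-haemoglobin complexes. Msr1 and Stab1 are scavenger receptors of tissue macrophages that bind modified lipoproteins among other ligands, and arterial macrophages use such receptors to take up lipid.

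Of the 10 members, 5 had a promoter in the RefSeq table for GRCm38.p6: Mrc1, Chil3, Retnla, Cd163 and Stab1. The stretches upstream of the start are shown for Mrc1, whose level was higher in each library labelled PHD2cko, for Cd163, whose level was lower, and for Retnla, which had no count in BMDMs. Each runs 5′ to 3′ on the gene's strand up to the first annotated base of the gene, with matches to the searched motifs in capitals.
Mrc1, chr2:14229164-14229391, plus strand: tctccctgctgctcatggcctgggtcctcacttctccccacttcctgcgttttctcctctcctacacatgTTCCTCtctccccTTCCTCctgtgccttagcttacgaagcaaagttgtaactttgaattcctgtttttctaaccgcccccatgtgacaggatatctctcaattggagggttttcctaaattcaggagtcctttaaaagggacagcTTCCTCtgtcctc
Cd163, chr6:124304401-124304650, plus strand: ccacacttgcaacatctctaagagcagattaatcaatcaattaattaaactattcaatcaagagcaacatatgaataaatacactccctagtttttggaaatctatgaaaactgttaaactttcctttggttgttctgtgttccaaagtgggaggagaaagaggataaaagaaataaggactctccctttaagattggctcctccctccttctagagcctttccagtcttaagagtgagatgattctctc
Retnla, chr16:48842359-48842550, plus strand: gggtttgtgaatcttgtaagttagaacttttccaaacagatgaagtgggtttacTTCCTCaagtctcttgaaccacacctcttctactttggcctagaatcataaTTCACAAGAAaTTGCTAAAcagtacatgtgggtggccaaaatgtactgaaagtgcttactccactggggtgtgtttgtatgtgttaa

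In the 250 bases before the RefSeq start, 8 motifs were searched on both strands, and no matches in these members overlapped each other. The capitals in Mrc1 are 3 matches on the minus strand to the core of PU.1 sites, GAGGAA, the first of them from 180 to 175 bases before the start. PU.1 is the lineage factor of macrophages, and its core occurred in the same window of 23.1% of 27025 genes. Retnla held 1 such core, a STAT6-type site, TTC and GAA with 4 bases between, from 145 to 136 bases before the start, and a C/EBP-type site, TTGCNNAA, from 134 to 127 bases. These 2 motifs were found in 5.86% and 9.55% of all windows. A TATA box, TATAAA, lay 30 to 25 bases before the RefSeq start of Retnla, past the printed stretch, a motif in 3504 of 27025 windows. Stab1 held 1 PU.1 core. None of the 8 motifs was in the Cd163 window. The cores of hypoxia response elements, ACGTG and GCGTG, were in none of the 5 windows, against 16.6% and 28.2% of all genes. The NF-κB-type site, GGG and TTTCC with 2 bases between, in 1.40% of windows, was likewise in none of the 5.

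All 12 libraries held from 15516465 to 25199770 counts, so that 3 counts in a library stood for at most 0.205 CPM (counts per 1e+06 counts, over the normalized library size) in BMDMs and 0.174 CPM in fibroblasts. Egln1, which encodes PHD2, was higher and not lower under the PHD2cko label, at 69.6 ± 1.77 CPM against 55.4 ± 0.574 CPM in BMDM WT (SD, n = 3 each; log2 fold change 0.33, SE 0.0527, adjusted p = 0.00203). All adjusted p are by the method of Benjamini and Hochberg over the quasi-likelihood tests of edgeR. Of 14 tested HIF targets, 11 were higher and 0 lower. The groups are therefore called by their labels. In BMDMs, all 23 macrophage markers were above 1 CPM in both groups, while 16 fibroblast markers summed to 4.62 to 10.2 CPM in BMDM WT and 8.08 to 10.0 CPM under the PHD2cko label. Of these 16, 1 was at 0 in both groups (Twist1), 2 and 3 reached 1 CPM, and 1 was called higher under the PHD2cko label (Sparc, 0.286 ± 0.277 and 1.00 ± 0.170 CPM, edgeR adjusted p = 0.0140), whose part in the members' values was not tested. A low count in bulk RNA cannot tell fewer cells with a transcript from less of it per cell.

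In WT BMDMs the 10 members fell into receptors that were plainly expressed and others, among them Nos2 and secreted proteins, that were near or at 0. To set levels between genes side by side, mean CPM was divided by the kilobases of exon sequence in the annotation. Stab1 stood highest at 114 ± 2.97 CPM per kb, and Mrc1, the mannose receptor, followed at 87.4 ± 1.68 (SD, n = 3). Msr1 was at 24.3 ± 0.870 CPM per kb, Clec10a, a lectin for galactose-type sugars, at 11.9 ± 0.301 and Cd163 at 2.99 ± 0.139. These 5 receptors differed from each other by more than their spread. Nos2 was far below them at 0.127 ± 0.0272 CPM per kb. Chil3, a secreted chitinase-like protein, was at 0.0248 ± 0.0215 CPM per kb, and Retnla, a secreted resistin-like protein, was at 0. In the libraries labelled PHD2cko, the top of this order was turned, with Mrc1 at 127 ± 4.66 CPM per kb and Stab1 at 113 ± 3.28. Below 1 CPM per kb in these libraries, Nos2 at 0.100 ± 0.0468 and Chil3 at 0.0726 ± 0.0356 lay within each other's spread.

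The first comparison asked which markers differ between BMDMs labelled PHD2cko and WT. Clec10a and Cd163 were lower in the libraries labelled PHD2cko, Mrc1 was higher and Msr1 slightly lower in every library, and Stab1 differed by less than its spread. Nos2, Chil3 and Retnla had too few counts for a test. Thus 6 of 10 members passed the filter on low counts, and 2 of these 6 were lower and 0 higher at an adjusted p under 0.05 in the fit of all 12 libraries, where 3.35% of all 14285 tested genes were lower and 3.38% higher. The groups did not overlap for 1 member on the higher side and for 3 on the lower side, against 16.3% and 15.6% of all tested genes. The median log2 fold change of the 6 tested members was −0.19, and that of all genes 2.2e-04.

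**Figure D1:**
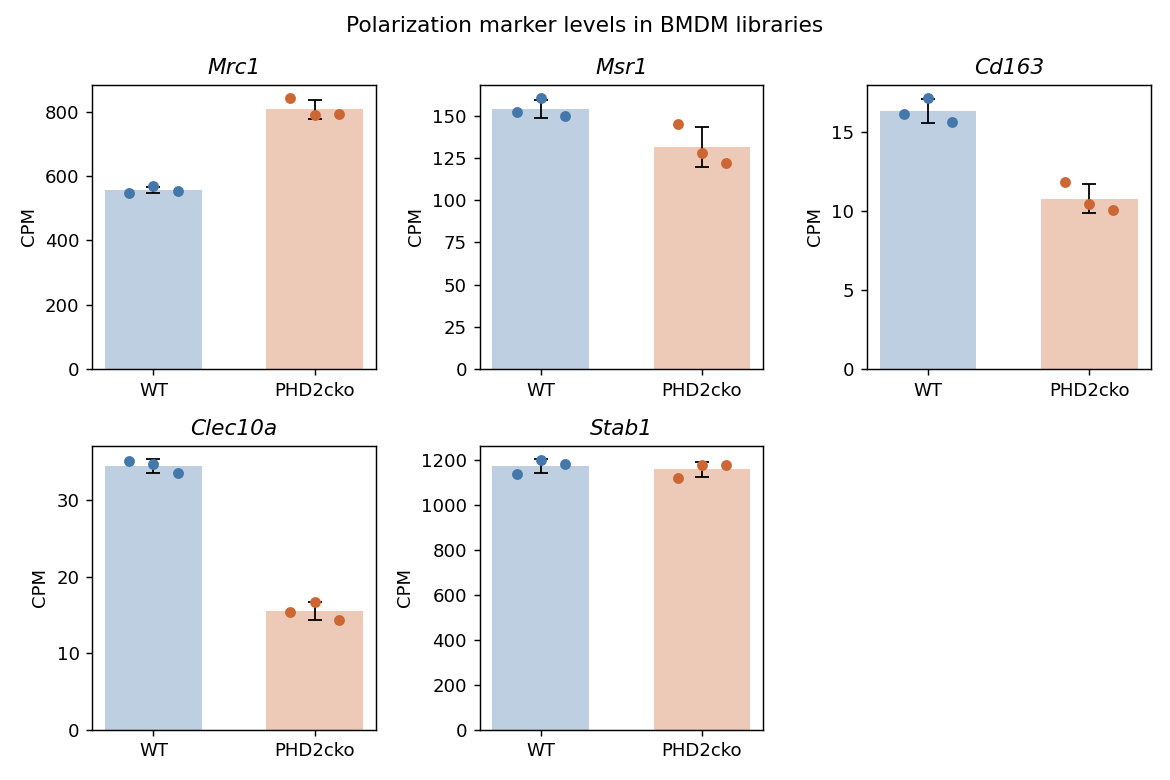
Level of 5 tested members in CPM (vertical axes, starting at 0) in the 3 BMDM libraries labelled WT and the 3 labelled PHD2cko; bars are means, error bars SD and points single libraries. The points of Clec10a, Cd163, Msr1 and Mrc1 do not overlap between the labels, while those of Stab1 do.

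Among the receptors, Clec10a (ENSMUSG00000000318.16, chromosome 11 of GRCm38 from 70156197 to 70170834, plus strand) had 542, 575 and 551 counts in BMDM WT replicates 1 to 3, and 254, 245 and 273 in those labelled PHD2cko. This is 35.2, 34.8 and 33.5 CPM against 15.4, 16.7 and 14.3 CPM. All libraries labelled PHD2cko were below all WT libraries, and by far more than the spread within either group. Its log2 fold change was −1.16 (SE 0.143), a fold of 0.448, with an adjusted p of 2.74e-04 from edgeR. With each BMDM library left out in turn, the adjusted p of edgeR stayed between 0.00202 and 0.00389. Clec10a is also a transcript of dendritic cells. Of 11 dendritic cell markers, 9 were tested and 0 were called in the 12-library fit, 1 of 7 tested was lower in BMDMs alone, 0 of the 11 were at 0 in either group, and their summed level ran from 28.0 to 29.1 CPM in BMDM WT and from 24.2 to 25.4 CPM in those labelled PHD2cko. Their part in the Clec10a value was not tested.

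Cd163 (ENSMUSG00000008845.9, chromosome 6 from 124304656 to 124330527, plus strand) had 249, 283 and 257 counts in BMDM WT and 195, 153 and 192 in the libraries labelled PHD2cko. In CPM these are 16.2, 17.1 and 15.6 against 11.8, 10.5 and 10.1, again without overlap. The log2 fold change was −0.60 (SE 0.143, adjusted p = 0.0243, edgeR), a fold of 0.661. The call was lost whichever of the 6 BMDM libraries was left out, with edgeR adjusted p from 0.054 to 0.119 and log2 fold changes from −0.67 to −0.55.

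Mrc1 (ENSMUSG00000026712.3, chromosome 2 from 14229392 to 14332057, plus strand) was at 547, 568 and 554 CPM in BMDM WT and at 841, 788 and 791 CPM in the libraries labelled PHD2cko. The lowest of the latter lay well above the highest WT library. The log2 fold change was 0.54 (SE 0.288), a fold of 1.45, and missed the threshold in the 12-library fit (adjusted p = 0.356, edgeR). In the 6 BMDM libraries alone the same log2 fold change of 0.54 had an SE of 0.0339 and an adjusted p of 4.91e-08 (edgeR). The 12-library fit gives each gene 1 estimate of spread over all groups. For Mrc1 that spread, as the square root of the dispersion, was 0.331, against 0.0383 in BMDMs alone and 0.441 in fibroblasts alone.

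Msr1 (ENSMUSG00000025044.16, chromosome 8 from 39581685 to 39642673, minus strand) was at 152, 160 and 150 CPM in BMDM WT and at 145, 128 and 122 CPM in those labelled PHD2cko. The groups did not overlap, but the gap between them was smaller than the range within the PHD2cko label. The log2 fold change was −0.23 (SE 0.190, adjusted p = 0.602) in the 12-library fit and −0.23 (SE 0.0531, adjusted p = 0.00624) in BMDMs alone, both by edgeR. The square root of its dispersion was 0.279 over 12 libraries, 0.0430 in BMDMs alone and 0.432 in fibroblasts alone. Msr1 shares chromosome 8 with Egln1 (124908587 to 124949324). On that chromosome 12.6% of 731 tested genes were called, against 6.46% of 13122 on the others, and the part of this in the Msr1 value was not tested.

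Stab1 (ENSMUSG00000042286.13, chromosome 14 from 31139013 to 31168641, minus strand), the highest member per kb in BMDM WT, was at 1140, 1200 and 1182 CPM in BMDM WT and at 1121, 1179 and 1180 CPM in those labelled PHD2cko. The libraries overlapped throughout. Its log2 fold change was −0.02 (SE 0.289, adjusted p = 1 in 12 libraries, edgeR), and the SE was 0.0332 in BMDMs alone (adjusted p = 0.773, edgeR). Taken in BMDMs alone, 4 of the 6 tested members passed, Mrc1 higher and Clec10a, Cd163 and Msr1 lower, in a fit that called 9.79% of 12282 genes higher and 10.8% lower.

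**Figure D2:**
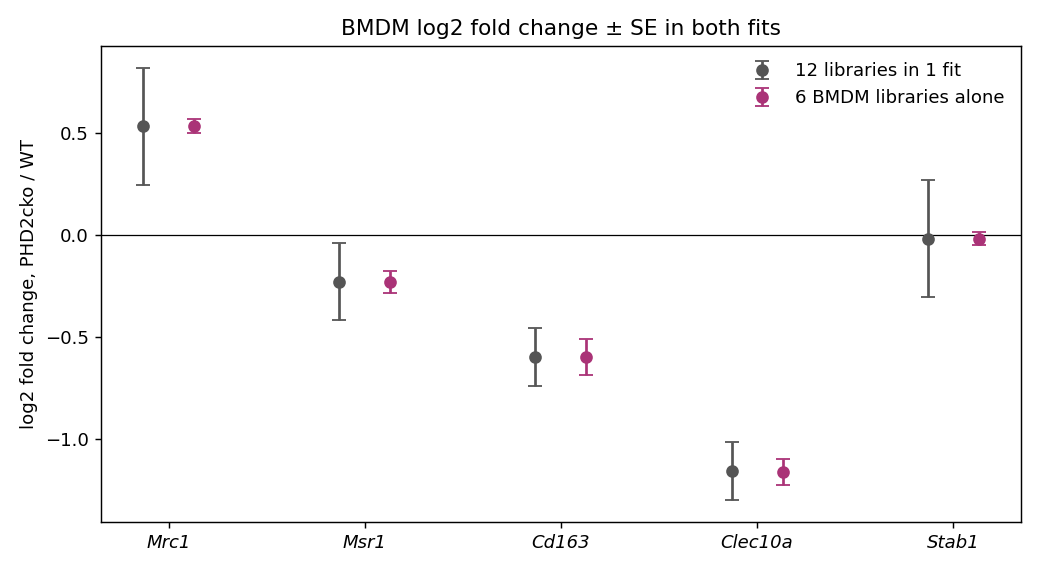
Log2 fold change of PHD2cko against WT BMDMs (vertical axis) with its standard error for 5 tested members, from the fit of all 12 libraries (grey) and from the 6 BMDM libraries alone (purple). The values coincide, but the errors of Mrc1, Msr1 and Stab1 shrink from 0.288, 0.190 and 0.289 to 0.0339, 0.0531 and 0.0332 in BMDMs alone.

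Nitric oxide synthase was near the limit of detection in BMDMs. Nos2 (chromosome 11 from 78920787 to 78960254, plus strand) had 10, 7 and 10 counts in BMDM WT and 9, 3 and 11 in the libraries labelled PHD2cko, a ratio of summed counts per depth of 0.821 with a 95% interval from 0.450 to 1.49 that covers counting error only. These counts cannot tell apart the ratios within this interval.

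The secreted IL-4 targets were at or near 0. Chil3 (chromosome 3 from 106147554 to 106167564, minus strand) had 0, 1 and 1 counts in BMDM WT and 3, 1 and 2 under the PHD2cko label. Retnla (chromosome 16 from 48842551 to 48844461, plus strand) had 0 counts in all 6 BMDM libraries, and 3 counts over each group, the limit that 0 allows, would be 0.0620 and 0.0598 CPM. Reads of Chil3, Retnla and Clec10a can be shared with close paralogues (Chil4, Retnlg and Mgl2), so their estimates are uncertain to that extent.

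The members' paralogues gave another view of the receptor families. Of 23 listed paralogues in the table, 8 reached 1 CPM in some group, and of 11 tested, 1 was higher and 0 lower. The higher one was Cd5l, a secreted protein with the same kind of scavenger domain as Cd163, at 570 ± 9.76 CPM in BMDM WT and 1217 ± 25.7 CPM under the PHD2cko label (log2 fold change 1.09, SE 0.0914, adjusted p = 4.45e-05, edgeR). Cd5l and Cd163 thus moved in opposite directions. Mgl2, the neighbour of Clec10a in sequence, was at 1.33 ± 0.329 CPM and 0.841 ± 0.114 CPM, lower in each library under the PHD2cko label, with an adjusted p of 0.527 (edgeR). Stab2 had a log2 fold change of −0.84 (adjusted p = 0.0978, edgeR) at 2.28 ± 0.339 CPM in WT, and passed in BMDMs alone (adjusted p = 0.0340, edgeR). Ly75, a relative of Mrc1, had one of −0.94 (adjusted p = 0.0881 in 12 libraries and 0.0545 in BMDMs alone, edgeR, and 0.0441 by DESeq2's Wald test). Chil1, Mrc2, Pla2r1 and Scara5 were at or under 1.11 CPM in both BMDM groups.

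Among the steps before the members, Ass1 passed in the 12-library fit. For IL-4 signalling, Il4ra was at 288 ± 10.7 CPM in BMDM WT and 259 ± 6.43 CPM under the PHD2cko label, and Stat6 at 319 ± 5.89 and 309 ± 16.2 CPM. Neither passed the threshold in the 12-library fit (edgeR adjusted p = 0.238 and 0.708). For the interferon arm, Irf5 had a log2 fold change of −0.11 (adjusted p = 0.772, edgeR). For IL-10, Il10ra had a log2 fold change of −0.18 (adjusted p = 0.636, edgeR) and Stat3 one of −0.13 (adjusted p = 0.166). In BMDMs alone Il4ra, Irf5, Il10ra and Stat3 were lower at 0.00233, 0.0245, 4.64e-04 and 0.00656 (edgeR), while Stat6 was not (0.355). For arginine supply, Ass1, which rebuilds arginine from citrulline, fell from 20.3 ± 0.507 to 9.61 ± 0.335 CPM (log2 fold change −1.08, SE 0.0930, adjusted p = 1.52e-05, edgeR). The arginine transporter Slc7a2 and the polyamine enzyme Odc1 did not pass (log2 fold changes 0.29 and 0.19, edgeR adjusted p = 0.283 and 0.208).

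Hand-written lists of other genes in the members' programmes are described by counts, none of which holds a member. Of 28 tested genes of the IL-4 and IL-13 response, 5 were higher, 4 lower and 19 did not pass, with a median log2 fold change of −0.16. Those called higher included Myc at 1.00 and the kinase Jak3 at 0.57, and those lower Socs1 at −0.89 and the factor Klf4 at −0.67. The call of Socs1 was marginal (edgeR adjusted p = 0.0496), missed in BMDMs alone (0.0571), and lost in 5 of 6 fits that left out a BMDM library, as that of Myc was in 4 of 6. Of 27 tested genes of the interferon-γ and lipopolysaccharide response, 0 were higher and 4 lower, with a median of −0.47. The chemokine Cxcl10 fell from 18.8 ± 2.05 to 6.36 ± 0.715 CPM, and Acod1, which makes itaconate, from 20.0 ± 2.27 to 7.33 ± 3.62 CPM (log2 fold changes −1.56 and −1.44).

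Of 26 tested genes of the IL-10 and glucocorticoid response, the list nearest to Cd163, 1 was higher and 3 lower (median −0.05). The higher one was Cd5l, and Ccr2 and Il21r were lower by log2 values of −0.58 and −0.35. Il21r lay at the threshold (edgeR adjusted p = 0.0497) and lost its call in all 6 fits that left out a BMDM library. Of 36 tested genes of arginine, nitric oxide and polyamine metabolism, 2 were higher and 3 lower (median 0.05). Gatm, which uses arginine to make guanidinoacetate, was higher by 0.63 and the antizyme inhibitor Azin1 by 0.19, while Ass1 and the arginine transporter Slc7a1 were lower by log2 values of −1.08 and −0.48. Of these, Gatm (edgeR adjusted p = 0.0392) lost its call whichever of the 6 BMDM libraries was left out, and also by DESeq2's Wald test (0.225). Azin1 and Slc7a1 each lost theirs in 4 of 6 such fits. Of 29 tested scavenger receptors and lectins, 2 were higher and 6 lower (median −0.04). The fatty acid receptor Cd36 rose from 155 ± 12.1 to 399 ± 18.9 CPM (log2 fold change 1.37) and Colec12 by 0.54, and the C-type lectins Clec4n and Clec4e fell by 1.65 and 1.23 on the log2 scale, although Clec4e did not pass by DESeq2's Wald test (adjusted p = 0.203). Over all genes 3.38% were higher and 3.35% lower in the same fit.

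**Figure D3:**
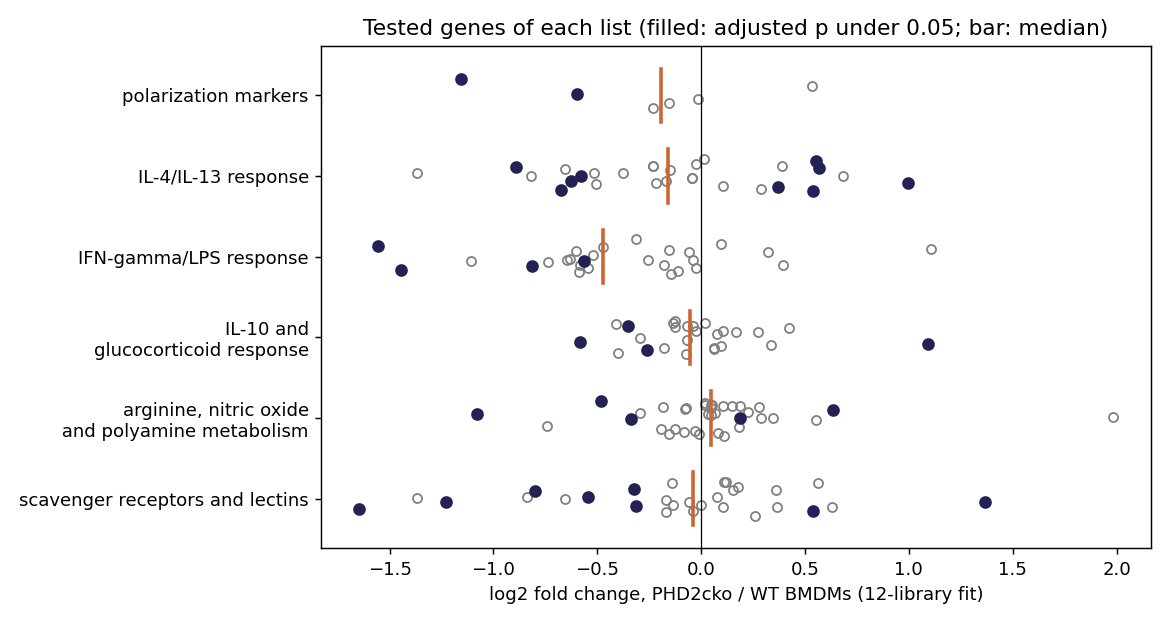
Log2 fold change of PHD2cko against WT BMDMs (horizontal axis, 12-library fit) for the tested polarization markers and for the tested genes of 5 lists; filled points passed an adjusted p of 0.05 and orange bars are medians. The interferon-γ and lipopolysaccharide list has its median at −0.47 and 0 genes called higher, while the other lists have medians between −0.16 and 0.05.

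Across the 6 BMDM libraries, the genes whose log2 level was most like Clec10a among 8921 genes of at least 10 CPM were Kctd12 (Pearson r = 1.00) and Hal (r = 0.999). Those most like Cd163 were Tiam1 (r = 0.995) and Ssr1 (r = 0.995). The 6 points share the split into 2 labels, so such r describe these libraries only. Of the other cell types that a bone marrow culture could hold, the summed level of 14 neutrophil markers ran from 299 to 314 CPM in BMDM WT and from 241 to 271 CPM under the PHD2cko label, with Ly6g, Elane and Retnlg at 0 in both. Of 4 tested, 0 were higher and 1 lower, the collagenase Mmp8. That of 12 eosinophil, basophil and mast cell markers ran from 5.93 to 6.81 and from 8.67 to 10.8 CPM, with Prg2, Mcpt8 and Fcer1a at 0 in both. Of 4 tested, 1 was higher, the eotaxin receptor Ccr3, and 0 lower. That of 15 lymphocyte markers ran from 222 to 229 and from 179 to 200 CPM, with Cd3e, Ncr1 and Trbc1 among those at 0 in both. Most of this sum was Ighm, the IgM heavy chain, at 218 ± 4.95 CPM in BMDM WT and 180 ± 10.1 CPM under the PHD2cko label. Of 7 lymphocyte markers tested, Ighm was called lower (edgeR adjusted p = 0.0434) and Igkc, an immunoglobulin light chain, higher (0.00572), with 0 counts in all 3 WT libraries and 12, 18 and 17 in those labelled PHD2cko. The 23 macrophage markers summed to 53482 to 55345 CPM and to 47612 to 50298 CPM. Of these 23, 0 were called in the 12-library fit, while 5 were higher and 9 lower in BMDMs alone, where 9.79% of all genes were higher and 10.8% lower. The labels did not overlap for 10 on the higher and 9 on the lower side, against 16.3% and 15.6% of all tested genes. Lyz2, the lysozyme gene that drives LysMCre, was at 16423 ± 431 and 11633 ± 445 CPM. The part of these shifts in the members' values was not tested.

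The second comparison was of fibroblasts in PHD2cko medium with those in WT medium. Here 5 of the 6 tested members were higher and 0 lower, where 8.93% of all tested genes were higher and 6.75% lower, and the 3 members whose groups did not overlap, Mrc1, Stab1 and Msr1, were all on the higher side (15.4% of all genes, with 16.5% on the lower). The other members called, Cd163 and Clec10a, passed the filter on low counts only through their level in BMDMs and were left out by it in the fibroblast libraries alone, so the count is a description. Macrophage markers moved with them. Of 23 such markers 22 were called higher, and their summed level went from 35.8 to 39.8 CPM in WT medium to 232 to 978 CPM in PHD2cko medium. As a share of the summed level in BMDMs of the same label this was 0.0706% ± 0.00408 and 1.44% ± 0.836 (SD, n = 3 each). In WT medium Trem2 held 16.6 ± 0.666 CPM of the sum, more than any other of the 23, while Adgre1 was at 0.166 ± 0.159 CPM. The WT medium share thus rests to a large part on Trem2, whose source in these libraries was not tested.

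Mrc1 had 4, 8 and 6 counts in WT medium and 471, 90 and 504 in PHD2cko medium (log2 fold change 6.03, SE 0.667, adjusted p = 1.36e-04, edgeR). Stab1 had 10, 15 and 10 counts against 573, 127 and 631 (log2 fold change 5.40, SE 0.551, adjusted p = 8.44e-05). Msr1 had 6, 3 and 2 counts against 198, 50 and 225 (log2 fold change 5.56, SE 0.645, adjusted p = 1.63e-04). In the 6 fibroblast libraries alone the edgeR adjusted p were 0.00692 for Mrc1, 0.00645 for Stab1 and 0.00645 for Msr1. These genes entered that fit through their level in PHD2cko medium. In all 3 genes replicate 2 in PHD2cko medium was the lowest of its group, as it was for the summed macrophage markers, at 0.478% against 2.01% and 1.82% in replicates 1 and 3. Cd163 had 3, 4 and 2 counts against 12, 2 and 11, and Clec10a 1, 0 and 0 against 7, 0 and 11. Both overlapped between the media in replicate 2. Their adjusted p in the 12-library fit (0.0443 and 0.0295, edgeR) come from genes that the BMDM libraries brought into the test, and nothing is rested on them. With each fibroblast library left out in turn, the edgeR adjusted p ran from 0.00175 to 0.184 for Cd163 and from 5.78e-04 to 0.135 for Clec10a, and neither passed without PHD2cko medium replicate 1 or 3 or without WT medium replicate 2 or 3. Cd163 also missed the threshold without WT medium replicate 1, and thus in 5 of 6 such fits. The ratio of summed counts per depth was 3.20 for Cd163 (95% interval from 1.45 to 7.79) and 20.7 for Clec10a (from 3.28 to 864), for counting error only.

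Set against the macrophage share of the same library, the members did not lie together. In PHD2cko medium Mrc1 stood at 1.35 to 1.66 times the share, Stab1 at 1.26 to 1.45 times, Cd163 at 2.24 to 2.84 times and Msr1 at 3.84 to 4.60 times. Clec10a was at 1.15, 0 and 1.89 times the share in replicates 1, 2 and 3. In WT medium, on 15 or fewer counts a library, Mrc1 was at 0.555 to 0.777 times, Stab1 at 0.614 to 0.658 times, Msr1 at 0.935 to 3.00 times, Cd163 at 8.84 to 14.2 times and Clec10a at 0 to 2.24 times the share. In replicates 1, 2 and 3 Msr1 was thus at 7.73%, 2.20% and 8.28% of its level in BMDMs labelled PHD2cko. With the share of each library times the mean BMDM profile subtracted, Msr1 kept 146, 39 and 176 counts in PHD2cko medium, Mrc1 155, 23 and 201, and Stab1 118, 31 and 196. The ratios and the subtraction in WT medium use a share of which Trem2 is the largest part. In WT medium the subtraction itself set Mrc1 and Stab1 to 0 counts in all 3 libraries and Msr1 to 4, 0 and 0, so that the calls these 3 members had after it are against zeros that the subtraction made, and nothing is read from them. Cd163 (adjusted p = 0.221) and Clec10a (0.195) did not pass after it, by edgeR. Whether the rest of the signal is of macrophage or of fibroblast origin was not tested. In the 6 fibroblast libraries alone, without subtraction, Mrc1, Stab1 and Msr1 were tested and passed, all higher, where 4.23% of 13379 genes were higher and 2.59% lower. With 15 or fewer counts a library in WT medium, they entered that fit through their level in PHD2cko medium, which fixed this direction. Their pass is thus a description only.

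**Figure D4:**
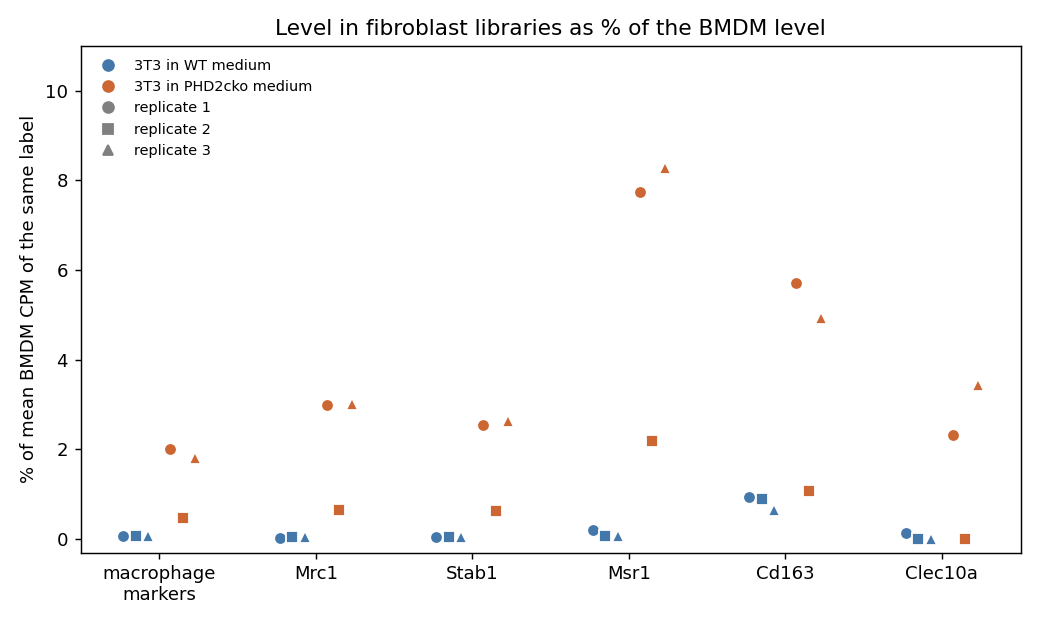
Level in each fibroblast library as percent of the mean BMDM level of the same label (vertical axis) for the summed macrophage markers and 5 members; blue marks WT medium, orange PHD2cko medium, and shapes mark replicates. In PHD2cko medium replicate 2 is lowest for each item, and Msr1 reaches 8.28% where the summed markers reach 2.01%.

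The secreted members and Nos2 stayed low in fibroblasts. Retnla, with 0 counts in BMDMs, had 2, 2 and 4 counts in WT medium and 8, 5 and 8 in PHD2cko medium, without overlap. The ratio per depth was 3.03 with a 95% counting interval from 1.29 to 7.90, and in a fit without a filter on low counts its adjusted p was 0.23 (edgeR). Nos2 had 0 counts in WT medium and 1, 0 and 2 in PHD2cko medium, and Chil3 had 0 in all 6 fibroblast libraries.

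Between WT BMDMs and 3T3 in WT medium, the 6 tested members were higher in BMDMs, where 40.4% of all genes were higher and 44.9% lower. These members had passed the filter through their level in BMDMs, which fixed this direction, so the count is a description only. Retnla, left out by the filter, ran the other way, with 0 counts in WT BMDMs and 8 over the 3 libraries in WT medium. Cell type, medium and time cannot be told apart in this comparison. The fitted log2 differences, given with no test, were 11.10 for Stab1, 10.96 for Mrc1, 10.62 for Clec10a, 9.80 for Msr1 and 6.84 for Cd163. Clec10a rests on 1 count in fibroblasts, and its ratio of summed counts per depth was 2281 (95% interval from 409 to 90167).

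The label effect in BMDMs less that in fibroblasts was below 0 for 5 of the 6 tested members at an adjusted p under 0.05 and above 0 for none, where 7.71% of all genes were lower and 4.58% higher. For Mrc1, higher under the PHD2cko label in both cell types, this came to −5.49 (SE 0.786, adjusted p = 6.42e-04, edgeR), and missed the threshold by limma-voom (−5.18, adjusted p = 0.0504). Mrc1, Msr1 and Stab1 had at most 15 counts a library in WT medium. They passed the filter through the groups where they are high, so their differences are a description. Cd163 and Clec10a entered this contrast, too, only through their level in BMDMs, so their values of −2.22 and −5.03 are a description. After the macrophage share was subtracted, Clec10a (adjusted p = 0.0730) and Cd163 (0.0779) did not pass in this contrast, by edgeR.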

How the data were processed

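Bulk polyA RNA of BMDMs and 3T3 fibroblasts was sequenced by the study in 4 groups of 3 libraries. The authors deposited estimated counts per gene, made with Kallisto on GRCm38 per the labels, without normalization. The values are whole numbers, and how the estimates became whole is not given in the sources used here. All 32544 genes and 12 libraries (15516465 to 25199770 counts) were read, and 0 columns were left unmapped.

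Genes were kept by filterByExpr over the 4 groups (14285 kept, 18259 left out), normalized by TMM and fitted together with edgeR 4.0.16 in R 4.3.3 by the quasi-likelihood method, with two-sided p adjusted after Benjamini and Hochberg over the kept genes and called under 0.05. CPM are counts over the effective library size. Ratios of summed counts have exact 95% intervals. Intervals and limits cover counting error only. The macrophage share is the summed CPM of 23 markers over their mean sum in BMDMs of the same label. Positions and exon lengths (the union of exons over transcripts) come from GENCODE on GRCm38, and promoters from RefSeq on GRCm38.p6, with 1 window per symbol.

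Some items are not reported here. The members and all lists were chosen with earlier results of these data known. Named beside the members were, per list, up to 2 genes with the largest rise and 2 with the largest fall among those past the threshold with at least 1 CPM, fixed signalling and arginine genes, paralogues of at least 1 CPM, and the 2 genes most like each called member. On simulated counts for the BMDM comparison over 14285 genes, 150 of 200 changed genes were found with 6 false among 156 calls. Found were 43 of 67 changed 1.5-fold, 49 of 67 changed 2-fold and 58 of 66 changed 4-fold. The simulation gave each gene 1 spread for all 4 groups, set by the trend over genes. For Mrc1 the square root of the dispersion was 0.0383 in BMDMs alone and 0.441 in fibroblasts alone, so these rates do not carry over to such members. Alternatives were DESeq2 1.42.0 size factors, its Wald test, limma 3.58.1 with voom (the study's method), 2 other filters, a replicate block, fits of 1 cell type, fits that leave out 1 library, and subtraction of the macrophage share, on effective library sizes.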

Additional observations from a re-analysis of the deposited data

Results flagged for a closer look

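The fitted label effect differed between the cell types for Mrc1, Msr1 and Stab1 in edgeR's contrast of the BMDM effect less the fibroblast effect on the log2 scale. In WT medium these 3 genes had at most 15 counts a library. They passed the filter through the groups where they are high, so the contrast is a description for them. The difference was −5.49 for Mrc1, −5.79 for Msr1 and −5.42 for Stab1, with adjusted p of 6.42e-04, 2.65e-04 and 2.79e-04, and the call of Mrc1 was lost by limma-voom (adjusted p = 0.0504). The contrast also called Cd163 (−2.22) and Clec10a (−5.03), which had passed the filter on low counts only through their level in BMDMs, so that nothing is rested on these calls. The fibroblast side of each difference comes with macrophage markers that summed to 0.0706% ± 0.00408 (WT medium) and 1.44% ± 0.836 (PHD2cko medium) of their BMDM sum (SD, n = 3 each), whose part was not tested beyond the subtraction. The largest part of the WT medium sum was Trem2, at 16.6 ± 0.666 CPM. After the subtraction, the difference was −3.54 for Clec10a (adjusted p = 0.0730) and −1.63 for Cd163 (adjusted p = 0.0779), so that neither passed, and −6.80 for Msr1 (adjusted p = 2.68e-04). For Mrc1 and Stab1 the subtraction left 0 counts in all 3 WT medium libraries, so their fitted difference moved furthest and is not a measure of size, and Msr1 was left with 4, 0 and 0 counts there, so nothing is read from the calls of these 3 genes after it.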

How the results depend on the processing

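Of 727 values of 39 genes under the alternatives, 643 kept their direction and side of the threshold, 68 lost the call, 8 gained it and 8 turned direction. These 8 are of 5 genes in BMDMs that were called in neither fit, and came with a library left out, over which the log2 fold changes ran from −0.037 to 0.0081 for Stab1, −2.84 to 2.80 for Chil1, −0.13 to 1.03 for Mrc2, −0.27 to 0.17 for Pla2r1 and −0.028 to 0.19 for Epas1. With the 6 libraries of a cell type alone, the members called went from 2 to 4 in BMDMs and from 5 to 3 in fibroblasts, where the filter on low counts left Cd163 and Clec10a untested, and all genes called from 961 to 2534 and from 2240 to 912. In BMDMs alone the called genes were 16 for IL-4 and IL-13 (9 in 12 libraries), 12 for interferon-γ and lipopolysaccharide (4), 12 for IL-10 and glucocorticoid (4), 11 for arginine (5) and 18 for scavenger receptors and lectins (8). These fits tested 12282 and 13379 genes and took the spread from 6 libraries. DESeq2's Wald test called 8 interferon-γ and 7 IL-10 genes, and limma-voom 7 interferon-γ genes, the cause of which was not tested. limma-voom also called 3 members in fibroblasts and 3 in the difference between cell types, where Mrc1 (0.0504) and Cd163 (0.0564) were lost, and the subtraction left 3 in each, Mrc1, Stab1 and Msr1, against WT medium counts that it had set to 0 or nearly so.

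With each library left out in turn, members called were 1 in each BMDM fit (Clec10a), 3 to 5 in fibroblasts and 3 to 5 in the difference between cell types. All genes called ranged from 527 to 664 and from 1260 to 2757, and list genes from 2 to 5 (IL-4), 3 to 4 (interferon-γ), 2 to 3 (IL-10), 1 to 5 (arginine) and 5 to 6 (scavenger receptors and lectins). In fibroblasts Cd163 or Clec10a, on counts of at most 12, were the members lost. Cd163 alone was lost without WT medium replicate 1. They were lost together without WT medium replicate 2 or 3 or PHD2cko medium replicate 1 or 3, and in the difference without PHD2cko medium replicate 3.

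The replicate numbers come from the labels and did not pair the libraries. Deviations of same-numbered libraries had a mean correlation of 0.00434 (−0.125 to 0.0646), and 6 of 12 libraries lay closest to their own number. The replicate block left 2 members called in BMDMs and 3 in fibroblasts, where Cd163 had an adjusted p of 0.0689 and Clec10a of 0.0534 (edgeR). In BMDMs it gave Cd163 an adjusted p of 0.0398. With at most 10 counts in a BMDM WT library, Nos2, Chil3 and Retnla are limited by depth.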
